A study of Mus musculus with 5 samples.

Results

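Jejunal enterocytes, the absorptive cells that cover the villi of the middle small intestine, were taken from a single-cell RNA library of mouse jejunum as the cells selected on their own counts of a few genes. A barcode was kept if it had at least 300 detected genes and at most 20% of its unique molecular identifiers (UMIs, each standing for 1 captured RNA molecule) in mitochondrial genes. It also needed at least 5 UMIs of the epithelial genes Epcam, Krt8 and Krt18 together, and at least 2% of its UMIs in the absorptive genes Apoa1, Apoa4, Fabp1, Fabp2, Rbp2 and Sis. Cells with 1% or more of their UMIs in the goblet cell genes Muc2, Tff3 and Zg16, or with more than 1 UMI of the leukocyte gene Ptprc, were left out. This gave 547 cells of 2884 jejunal barcodes. They were 29.2% (exact Clopper-Pearson 95% interval 27.2 to 31.3) of the 1872 barcodes within the gene and mitochondrial limits. They were also 60.5% (57.2 to 63.7) of the 904 among these with at least 5 epithelial UMIs. The same gate kept 478 cells in duodenum, 292 in ileum, 4 in colon and 0 in rectum, so 547 of the 16535 barcodes of all 5 libraries are described here.

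The study profiled single cells of duodenum, jejunum, ileum, colon and rectum of mouse, with 1 library per segment. Cells not stained by propidium iodide, which labels dead cells, were sorted and captured with 10x Genomics chemistry, and each library holds epithelium, mesenchyme and leukocytes together according to its label. Strain, age, sex, any treatment and the number of animals behind a library are not given in the sources used here. With 1 library per segment there is no replicate, so segment and library cannot be told apart and no test between segments was made. Levels are CPM, a gene's UMIs per 1000000 UMIs, both summed over the cells of a class. The 95% intervals on them are exact Poisson intervals that cover counting error only. Intervals on shares of cells are Clopper-Pearson intervals, which take cells as independent and hold no spread between animals or libraries.

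Enterocytes arise from dividing crypt cells, move up the villus as they mature and are shed at its tip. Their apical brush border carries hydrolases that split sugars and peptides and transporters that take up the products, while absorbed fat leaves the cell in chylomicrons built around apolipoproteins. Work on mouse villi has described genes of antimicrobial defence near the villus base, nutrient transporters in its middle and apolipoprotein and purine genes toward its tip. Along the length of the intestine, the ileum takes over the uptake of bile acids and vitamin B12.

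The promoter windows of 3 genes that mark the main patterns are shown here, from 250 bases before to 50 bases after the gene start, as RefSeq gives them for build GRCm38.p6. Lct (the gene at chr1:128284756-128328318, window chr1:128328269-128328568, minus strand) encodes lactase and is a marker of the class that the gate did not use. Cyp3a11 (gene chr5:145854607-145879854, window chr5:145879805-145880104, minus strand) encodes a drug-metabolising cytochrome. It was higher against ileum and on the tip side of the expression score used below to order the cells. Fabp6 (gene chr11:43596040-43601562, window chr11:43601513-43601812, minus strand) encodes the ileal bile acid binding protein and was nearly absent from jejunum. Capitals mark matches on either strand to 5 short motifs: TATAAA (the letters of a TATA box), AGATAA (bound by factors of the GATA family), GTTAAT (HNF1), CAAAGTCC (HNF4) and TTTATG (CDX).
Lct: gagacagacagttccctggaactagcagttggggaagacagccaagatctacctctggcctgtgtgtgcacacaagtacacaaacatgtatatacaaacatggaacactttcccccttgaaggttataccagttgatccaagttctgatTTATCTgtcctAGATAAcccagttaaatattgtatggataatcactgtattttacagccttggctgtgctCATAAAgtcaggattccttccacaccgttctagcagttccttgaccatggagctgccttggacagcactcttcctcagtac
Cyp3a11: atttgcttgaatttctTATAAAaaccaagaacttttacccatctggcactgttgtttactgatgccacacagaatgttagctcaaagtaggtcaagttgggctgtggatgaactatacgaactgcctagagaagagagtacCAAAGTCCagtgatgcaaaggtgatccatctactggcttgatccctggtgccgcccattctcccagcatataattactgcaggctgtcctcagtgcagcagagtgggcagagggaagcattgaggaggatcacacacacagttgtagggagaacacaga
Fabp6: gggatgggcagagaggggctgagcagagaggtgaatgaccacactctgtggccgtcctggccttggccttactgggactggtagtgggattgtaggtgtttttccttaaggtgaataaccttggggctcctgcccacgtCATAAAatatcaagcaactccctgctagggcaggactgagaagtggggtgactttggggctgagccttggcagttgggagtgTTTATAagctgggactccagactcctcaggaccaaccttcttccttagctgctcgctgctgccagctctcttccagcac
Of all 32851 promoter windows of this length, 13.6% held TATAAA, 11.2% AGATAA, 7.10% GTTAAT, 1.42% CAAAGTCC and 11.9% TTTATG. The Lct window held AGATAA at -90 on the gene's strand and at -101 on the other strand, counted from the gene start, and TTTATG at -31 on the other strand. The Cyp3a11 window held CAAAGTCC at -109 and TATAAA at -234, and the Fabp6 window TATAAA at -29 and TTTATG at -111, both on the other strand. No 2 of these matches overlapped, and GTTAAT had no match in the 3 windows.

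The jejunal enterocytes were deeply sampled, with a median of 33496 UMIs per cell (617 to 89431) against 36317.5 in duodenum and 14629 in ileum. Mitochondrial genes held a median of 13.3% of UMIs in jejunum and duodenum and 10.0% in ileum. The mitochondrial limit removed 560 of 1107 jejunal barcodes that met every other condition (50.6%), against 404 of 882 in duodenum and 54 of 346 in ileum. Any 2 libraries shared between 0 and 5 barcodes, none of them between enterocyte classes. Summed markers of T and NK cells (2.03 CPM), myeloid cells (4.41 CPM), stroma (0.954 CPM) and tuft cells (8.11 CPM, with Dclk1, Avil and Pou2f3 at 0) were low in the class. Summed B and plasma cell markers reached 181 CPM, and 90.3% of enterocytes held a UMI of the antibody light chain gene Igkc. In 515 jejunal immune cells the same list came to 50126 CPM. One jejunal enterocyte held 1165 UMIs of Paneth cell markers and supplied most of that list's counts in the class.

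Of the 5 markers of the label, Sis (sucrase-isomaltase), Apoa4 (apolipoprotein A-IV) and Rbp2 (a retinol binding protein) were gate genes and say nothing about it. Lct and Slc7a8 were outside the gate, but the class was chosen with earlier results of these data known. Their levels describe the class and are no independent check. Lct reached 907 CPM (893 to 921) in the class, 42.2 CPM in the 357 other jejunal cells with at least 5 epithelial UMIs and 3.83 CPM in immune cells. Slc7a8, which encodes a neutral amino acid exchanger of the basolateral membrane, reached 268 CPM (260.2 to 276), against 55.1 and 13.9 CPM. Both were thus higher in the class than in the other jejunal cells, with intervals that cover counting error only. The 357 cells, called other epithelial cells below, had no limit on Ptprc or goblet genes. B and plasma cell markers summed to 31127 CPM in them, so the set is mixed. The absorptive genes held a median of 6.66% of a cell's UMIs, from 2.02% to 12.5%. Just inside the 2% limit, 17 cells with 2% to under 2.5% had 311 CPM of Lct, 3598 of Sis and 593 of Apoa4. Just outside it, 14 cells with 1.5% to under 2% had 326, 2641 and 307 CPM.

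Lct and Slc7a8, the 2 markers that the gate did not use, both had their highest level in jejunum. As above, this describes the class and is no independent check. Lct was at 501, 907 and 385 CPM in duodenum, jejunum and ileum. Slc7a8 was at 135, 268 and 111 CPM in the same order. The Poisson intervals of jejunum lay above those of both neighbours for each gene, but neither gene reached 4-fold. After each cell was thinned to 2000 UMIs, Lct was seen in 77.9% (74.2 to 81.4) of 535 jejunal cells, 60.2% (55.6 to 64.7) of 465 duodenal cells and 48.2% (42.3 to 54.2) of 282 ileal cells. The unthinned shares were 97.6%, 91.6% and 80.5%. Among 490 thinned jejunal immune cells, whose median before thinning was 3839 UMIs, 0.408% held a UMI of Lct. Thinning left out 12 jejunal, 13 duodenal and 10 ileal cells that were shallower than 2000 UMIs. For Slc7a8 the thinned shares were 43.2% (38.9 to 47.5), 24.7% (20.9 to 28.9) and 22.0% (17.3 to 27.3) in jejunum, duodenum and ileum, and 2.65% in jejunal immune cells. The intervals on all these shares cover no spread between animals or libraries.

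The gate genes themselves differed in level between segments, which is a description of the selected cells. Apoa4 was at 5771, 3944 and 215 CPM in duodenum, jejunum and ileum, and Rbp2 at 19143, 9919.7 and 1311 CPM in the same order. Sis was at 2448, 3473 and 3279.7 CPM. Fabp1, a liver-type fatty acid binding protein gene, had a median of 120.0 UMIs per 10000 in a jejunal cell and 0.605 in an ileal cell. Fabp2, its intestinal relative, had medians of 197 and 254, and Apoa1 of 159 and 202. Jejunal cells thus met the absorptive condition with all of these genes, and ileal cells mainly with Fabp2, Apoa1 and Sis.

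To describe the spread within the class, the 547 cells were ordered by an axis score. It was the mean of the natural log(1 + UMIs per 10000) over 6 tip genes (Ada, Nt5e, Slc28a2, Enpp3, Creb3l3, Apoa4) minus that over 6 base genes (Reg1, Reg3b, Reg3g, Nlrp6, Il18, Lypd8). The ordered cells were cut into 5 groups of equal size (quintiles) of 109 or 110 cells. Ada, which encodes adenosine deaminase, could not order these cells, as only 3 of the 547 held a UMI of it (0.179 CPM). Nt5e, for an ecto-nucleotidase, was seen in 1 cell, and the nucleoside transporter gene Slc28a2 in 0 of 547 cells, which allows a share of up to 0.548% of cells with a UMI and sets no limit on cells that express it below capture. Enpp3, for a nucleotide pyrophosphatase, was seen in 29 cells at 9.12 CPM, and 52.2 CPM of it lay in the highest quintile. The tip side of the score therefore rested mainly on Apoa4 and on Creb3l3, a transcription factor gene of lipid metabolism at 432 CPM. In jejunal immune cells Ada was at 13.6, Nt5e at 31.0 and Slc28a2 at 47.3 CPM. The position of a cell on the axis is an order by these genes, as neither a cell's place on a villus nor its maturity was measured here.

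Apoa4 was spread widely among the cells, with a 10th percentile of 7.30, a median of 30.8 and a 90th percentile of 89.3 UMIs per 10000, and only 5 cells without a UMI. From the lowest to the highest quintile its level was 1899, 2873, 3568, 4519 and 8002 CPM. Lypd8, for a secreted protein that keeps bacteria off the epithelium, ran the other way at 4677, 4056, 2679, 1786 and 253 CPM. Both genes helped to order the cells, so these values describe the order. The quintiles are ranges of the score and not cell types, and 132 of 547 cells lay within 0.05 score units of a cut. Median UMIs per cell by quintile were 35499.5, 35714, 34266.5, 33914 and 29482, and median mitochondrial shares lay between 13.2% and 13.8%.

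**Figure D1:**
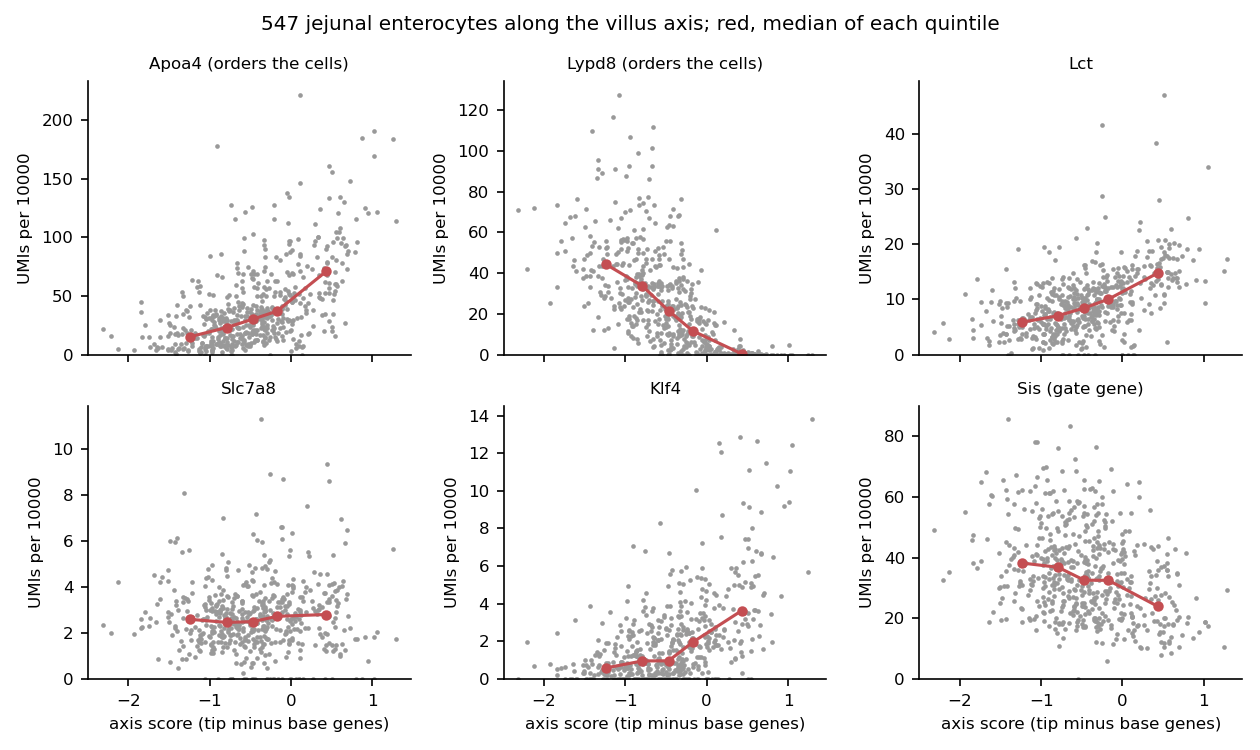
Each grey point is 1 of 547 jejunal enterocytes, plotted by axis score (x) and UMIs of the gene per 10000 (y, linear); red points join the medians of the quintiles. Median Lct goes from 5.86 to 14.8 UMIs per 10000 and median Klf4 from 0.594 to 3.64, while median Slc7a8 stays between 2.47 and 2.81.

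Lct, which did not order the cells, was higher at each step of the axis. Its level by quintile was 607, 740.3, 857, 1035 and 1455 CPM, and the median cell went from 5.86 to 14.8 UMIs per 10000. The 10th to 90th percentiles of cells, 2.45 to 12.1 in the lowest quintile and 7.11 to 20.3 in the highest, overlapped. Slc7a8 was level along the axis, at 259, 255, 257, 286 and 289 CPM. Sis, a gate gene, was lower toward the tip side, at 3935, 3767, 3567, 3244 and 2599.9 CPM. Klf4, for a transcription factor of differentiated epithelium, was at 85.8, 131, 151, 228 and 426 CPM, which was 4.74-fold higher in the highest than in the lowest quintile.

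Across all genes outside the gate and the axis lists, 25 of the 5972 measured well enough were at least 4-fold higher in the highest quintile than in the lowest (0.419% of genes) and 62 were at least 4-fold lower (1.04%). The rule asked for a ratio of at least 4 with 5 CPM added to both levels, Poisson intervals that did not overlap and at least 50 UMIs on the higher side. It is a rule of size, not a test, and folds given here include the 5 CPM. The median log2 ratio over all 5972 genes was -0.05.

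The 10 largest ratios on the higher side belonged to genes of varied roles, among them uptake, lipoproteins and drug metabolism. Apoc2, for the apolipoprotein that activates lipoprotein lipase, was at 502, 869.6, 1026, 1593 and 3068 CPM from the lowest to the highest quintile (6.06-fold). Selenop, for the plasma selenium carrier, was at 997, 1330.4, 1522, 2203 and 4858 CPM (4.85-fold). Cyp3a11 was at 201, 357, 476, 697 and 1139 CPM (5.57-fold). Each of the 3 was higher at every step. Cubn, for the receptor cubilin that takes up vitamin B12 bound to intrinsic factor, had the widest range, at 10.1, 46.7, 84.1, 127 and 347 CPM (23.3-fold). Slc23a1, for a vitamin C transporter, went from 24.6 to 135 CPM, and Slc5a12, for a sodium-coupled lactate transporter, from 10.4 to 142 CPM (9.55-fold). Rdh9, for a retinol dehydrogenase, went from 8.55 to 74.7 CPM, Acot12, for an acyl-CoA thioesterase, from 3.37 to 44.8 CPM, and the amino acid transporter gene Slc7a15 from 22.0 to 162 CPM.

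Other genes on the higher side were Ace, for angiotensin-converting enzyme, at 297, 409, 536, 689 and 1219 CPM (4.06-fold), and Enpp7, for the alkaline sphingomyelinase of the brush border, at 85.2, 147, 187, 246 and 404 CPM. The water channel genes Aqp1 (35.8 to 219 CPM) and Aqp3 (11.9 to 67.0 CPM), the kinase gene Sgk1 (89.4 to 373 CPM) and Id1, for an inhibitor of helix-loop-helix factors (57.0 to 265 CPM), also passed. Selenop, Slc23a1, Enpp7, Aqp1, Aqp3, Sgk1 and Id1 lay outside the 10 largest ratios and were picked for mention after their values were seen. Susd2, Npl and Pmp22 were close to 0 in the lowest quintile, at 0.259, 0.259 and 0 CPM, and reached 31.5, 27.4 and 26.3 CPM in the highest. Pmp22 rested on few cells: 13 jejunal enterocytes held its 78 UMIs, 71 of them in the highest quintile and 19 in 1 cell.

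**Figure D2:**
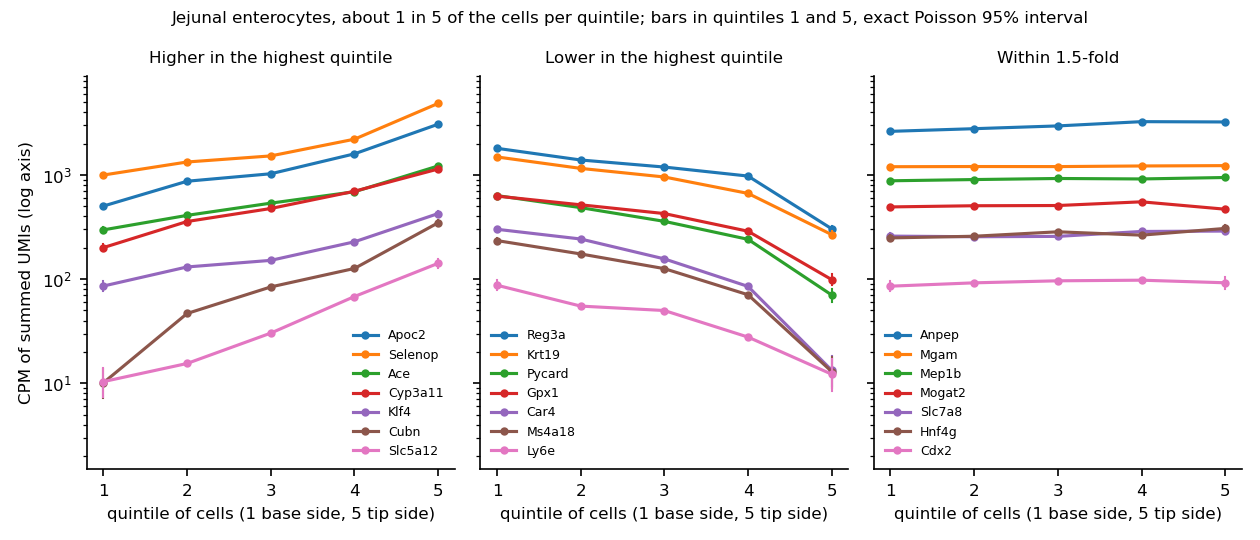
CPM of summed UMIs (y, log axis) in the 5 quintiles of jejunal enterocytes from base side to tip side (x); lines are genes and vertical bars in quintiles 1 and 5 are exact Poisson 95% intervals. Cubn spans 10.1 to 347 CPM and Car4 301 to 13.3 CPM, while Mgam stays between 1199 and 1228 CPM.

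Peptidase and structural genes of the brush border had small positive ratios toward the tip side, and few passed the rule of size. All 12 measured peptidase genes of the brush border had positive log2 ratios (median 0.83), of which Ace alone passed 4-fold and 4 were at least 2-fold higher. Of all 5972 genes 2625 were positive, and 2.83% were at least 2-fold higher by the same rule. Dpp4, for dipeptidyl peptidase 4, went from 401 to 774 CPM, and Mme, for neprilysin, from 460.1 to 902. Anpep, for aminopeptidase N, differed little, at 2619 and 3223 CPM, as did Mep1b, for meprin beta, at 878 and 944. All 10 genes of phosphatases and brush border structure were also positive (median 0.70), 3 of them at least 2-fold higher and none past 4-fold. Among them, the scaffold gene Pdzk1 went from 115 to 417 CPM, the microvillar link gene Cdhr2 from 374 to 964 and Vil1, for villin, from 1107 to 1751.

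The enzymes of the brush border that split sugars did not follow 1 course. Treh, for trehalase, went from 198 to 586 CPM, beside the higher Lct. Mgam, for maltase-glucoamylase, was at 1199 and 1228 CPM, and the gate gene Sis was lower on the tip side. Of 9 measured genes of sugar transport and fructose metabolism none passed 2-fold (median 0.15). In that list the glucose exit transporter gene Slc2a2 went from 247 to 469.6 CPM and the fructose transporter gene Slc2a5 from 68.7 to 91.4.

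Among 12 genes of amino acid and peptide transport 10 were positive (median 0.48), with none past 4-fold on the higher side. Of all 5972 genes 2625 were positive. Slc15a1, for the peptide transporter PEPT1, went from 259 to 547 CPM and Slc6a19, for the main neutral amino acid importer, from 143 to 443. Slc1a1, for an importer of acidic amino acids, was 4.21-fold lower, at 28.5, 16.6, 17.5, 8.65 and 2.96 CPM. It was also the only member of this list past 4-fold in either direction. The basolateral genes Slc7a7 (277 and 279 CPM) and Slc3a2 (362 and 403 CPM) hardly differed between the ends.

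Of 11 measured genes of chylomicron assembly 1 passed 4-fold, Apoc2, and 2 passed 2-fold, Apoc2 and Apoc3. Of all 5972 genes 0.419% passed 4-fold as higher and 2.83% were at least 2-fold higher. Apoc3, for an inhibitor of lipoprotein clearance, was at 1502, 1961, 2656, 3182 and 5713 CPM and Apob, for the chylomicron's structural protein, at 1749.6, 2072, 2088, 2440.2 and 3412 CPM. Mttp, for the protein that transfers lipid onto apolipoprotein B, was at 1734 and 1869 CPM in the end quintiles. Mogat2, Dgat1 and Dgat2, which encode the acyltransferases that rebuild triglyceride, were at 493 and 468, 934 and 934, and 233 and 262 CPM. The median log2 ratio over the 11 was 0.13.

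On the lower side, 6 of the 8 listed defence genes of the villus base had built the axis score, and of the other 2 Reg3a passed 4-fold and Ccl25 did not. Reg3a, for an antibacterial lectin, was at 1800.4, 1391, 1189.5, 975 and 304 CPM (5.85-fold lower). Pycard, for the inflammasome adaptor ASC, was at 633, 485, 358, 241 and 70.3 CPM (8.47-fold lower). Car4, for a membrane carbonic anhydrase, was at 301, 243, 156, 85.0 and 13.3 CPM (16.7-fold lower), and Ms4a18, for a membrane-spanning protein, at 234, 174, 126, 70.7 and 13.0 CPM (13.3-fold lower). Krt19, for an epithelial keratin, went from 1487 to 267 CPM, and the glutathione peroxidase genes Gpx1 and Gpx2 from 626 to 98.8 and from 288 to 51.1 CPM. Dmbt1, for a mucosal scavenger receptor, went from 38.3 to 5.18 CPM and Cyp51, for a sterol synthesis enzyme, from 35.2 to 3.33. Krt19, Gpx1, Gpx2 and Cyp51 were picked for mention after their values were seen. Ccl25, for a chemokine that draws lymphocytes, was at 1269 and 694 CPM.

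Ribosomal protein genes made up 27 of the 62 lower genes. All 79 measured members of the 82 genes of this family, a set chosen after its values were seen, had negative log2 ratios in jejunum, with a median of -1.87. Their share of all UMIs was 8.36%, 6.75%, 5.79%, 4.84% and 2.29% from the lowest to the highest quintile. In duodenum the share went from 8.63% to 2.59% (median log2 ratio -1.73, 17 genes past 4-fold). In ileum it went from 5.71% to 2.47% (median -1.22, 0 past 4-fold). All 79 were negative in each of the 3 libraries. The largest jejunal ratio was that of Rpl3, at 641 and 76.2 CPM.

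**Figure D3:**
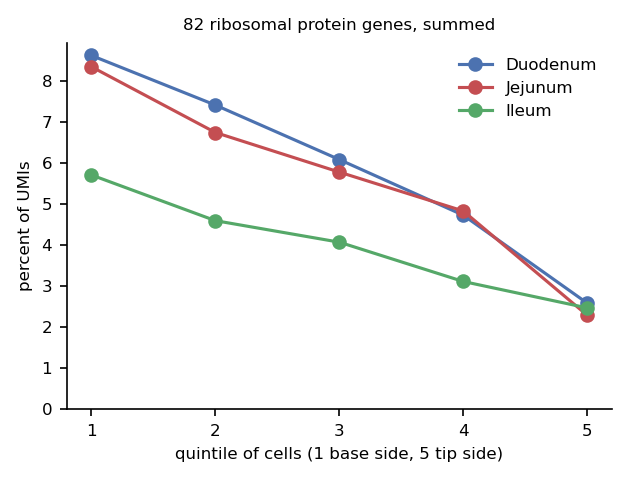
Share of all UMIs in 82 ribosomal protein genes (y, percent) in quintiles of cells ordered from base to tip side separately in each library (x). The share is lower at each step in all 3 libraries, ending at 2.59%, 2.29% and 2.47% in duodenum, jejunum and ileum.

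Paneth cell and crypt genes among the 62 rested on single cells. One cell held 1020 of the 1108 UMIs of Defa30 in the class, 742 of 963 of Defa24 and 271 of 307 of Lyz1, which encode a defensin each and lysozyme. Without each gene's highest cell their log2 ratios along the axis went from -4.65 to 0.06, from -3.47 to 0.25 and from -3.41 to 0.06. For each of the 3 genes that cell lay in the lowest quintile. Olfm4, a crypt stem cell marker, had a log2 ratio of -3.05, with 216 of the 224 UMIs of the lowest quintile in 1 cell and 7 UMIs in the highest, and without each gene's highest cell the ratio was -0.05. Another cell, in quintile 4, held 366 of the 654 Olfm4 UMIs of the class and does not enter this ratio. Over all genes, 79 passed 4-fold without each gene's highest cell, 77 of them among the 87.

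The same order, made separately in the other 2 libraries, gave mostly the same directions. Of the 25 genes higher on the jejunal tip side, 22 were measured in duodenum and 17 in ileum, and all of these were positive there, with 18 and 5 past 4-fold. Of the 62 lower genes, 52 of 54 measured in duodenum and 45 of 47 in ileum were negative, with 31 and 4 past 4-fold. In all, 0.762% of 5772 genes were at least 4-fold higher and 0.624% lower in duodenum, and 0.471% and 0.412% of 3399 in ileum. Slc5a12 had log2 ratios of 3.74, 3.26 and 2.31 in duodenum, jejunum and ileum, and Cyp3a11 of 2.70, 2.48 and 2.97. Cubn, at 4.18, 4.54 and 0.86, was steep in duodenum and jejunum and was already at 298 CPM in the lowest ileal quintile. The difference between libraries was not tested.

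**Figure D4:**
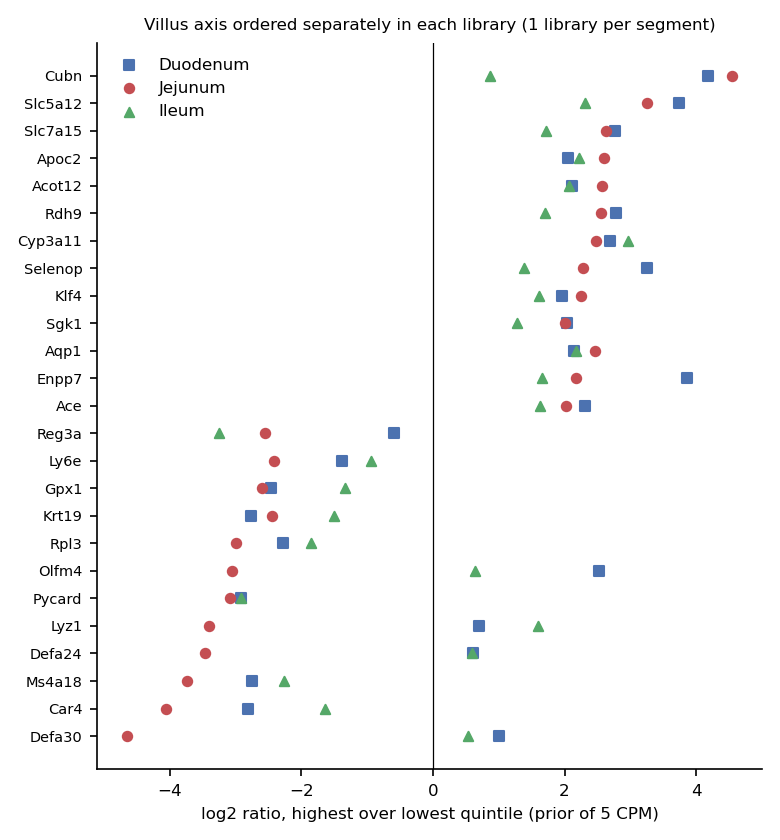
Log2 ratio of the highest over the lowest quintile of cells (x, with 5 CPM added) for genes past 4-fold in jejunum (y), in duodenum (squares), jejunum (circles) and ileum (triangles). The genes above 0 in jejunum lie above 0 in all 3 libraries, whereas Olfm4, Lyz1, Defa24 and Defa30, whose counts in the lowest jejunal quintile lay mostly in 1 cell, lie above 0 in the other 2.

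Selenop and Apoc2 had the pattern most like that of Apoa4 from cell to cell. Over 535 jejunal cells thinned to 2000 UMIs, the 5 genes with the highest Spearman correlation with Apoa4, of 2595 seen in at least 10% of cells, were Selenop (0.64), Apoc2 (0.63), the gate gene Fabp2 (0.58), Apoc3 (0.58) and Gda, for guanine deaminase (0.51). The lowest were ribosomal protein genes, led by Rps12 (-0.58) and Rps24 (-0.58). These correlations describe cells of 1 library, which share their depth after thinning and the gate on Apoa4. No such list was made for Ada, which had no UMI in the thinned cells.

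Against ileal cells of the same gate, 31 of 7968 genes were at least 4-fold higher in jejunal enterocytes (0.389%) and 40 were at least 4-fold lower (0.502%). The median log2 ratio over all 7968 was 0.03. Ileal cells were shallower (median 14629 against 33496 UMIs) and held fewer mitochondrial UMIs (10.0% against 13.3%), and the part of these differences in the result was not tested beyond the alternatives given with the processing. All 31 higher genes kept the same sign, past 2-fold, when each jejunal quintile was set against the ileal quintile of the same rank. Past 4-fold in all quintiles were 11 of the 31. Of the 40 lower genes, 37 kept the same sign in all quintiles, 36 were past 2-fold and 20 past 4-fold. All these genes were picked on the summed counts of the same cells, so the counts by quintile describe them and are no test. The quintiles were cut separately in each library, so equal rank is not equal score. The highest quintile had a median score of 0.434 in jejunum and -0.236 in ileum.

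Drug-metabolising enzymes were among the genes higher in jejunum: 7 of 21 listed genes passed 4-fold, all higher in jejunum. Of all 7968 genes 0.389% passed as higher. The list's median log2 ratio was 0.81. Cyp3a11 was at 475, 539 and 81.3 CPM in duodenum, jejunum and ileum (6.30-fold over ileum). Cyp2b10, a target of the receptor CAR, was at 636, 469.6 and 58.8 CPM in the same order (7.44-fold), and Cyp2c66 at 127, 104 and 8.17 CPM (8.24-fold). Gsta4 and Gstm3, for enzymes that join glutathione to toxic compounds, were 4.07-fold and 4.75-fold higher, and the alcohol dehydrogenase genes Adh1 and Adh6a 4.46-fold and 4.17-fold. The esterase genes Aadac (352, 276 and 43.4 CPM) and Ces2g (114, 62.0 and 4.64 CPM) passed as well. Gstm1, Gstm2, Gstm3 and Gstm6 are similar neighbouring genes, and how the counting treated reads that match several of them was not checked. Not every enzyme of the list differed: Ces2e was at 1194, 1282 and 1145 CPM and Sult1d1 at 478, 637 and 643 CPM.

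Fat handling also differed. Of 12 chylomicron assembly genes, Apoc2 (2848, 1315 and 123 CPM in duodenum, jejunum and ileum, 10.3-fold over ileum) and Apoc3 (1872, 2844 and 619 CPM in the same order, 4.57-fold) passed 4-fold. The list's median log2 ratio was 0.52, with 11 of 12 positive. Of all 7968 genes 4301 were positive and 0.389% passed 4-fold as higher. Mttp was at 2149, 1852 and 920.1 CPM, and Apob at 1733, 2291 and 1748 CPM. Cd36, for a fatty acid uptake receptor, was at 74.8, 92.7 and 12.6 CPM (5.54-fold) and alone passed among 10 measured genes of fatty acid uptake and storage (median 0.37). Slc27a4, for the fatty acid transport protein FATP4, went slightly the other way, at 445, 585 and 691 CPM.

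Single genes of other roles also separated jejunum from ileum. Reg1, for a secreted lectin-like protein of the villus base, was at 1405, 245 and 5.01 CPM in duodenum, jejunum and ileum (24.9-fold). In jejunum it was concentrated in few cells: 159 of 547 held a UMI of it, and the 10 cells with the most held 54.8% of its 4104 UMIs. Ckb, for brain-type creatine kinase, was at 1139, 621 and 43.6 CPM in the same order (12.9-fold), and Casp6, for an executioner caspase, at 298, 229 and 15.2 CPM (11.6-fold). Onecut2, for a transcription factor of proximal intestine, was at 87.2, 23.2 and 0.557 CPM. Retsat, for retinol saturase, was at 213, 226 and 52.1 CPM and was the only gene past 4-fold of 5 measured in retinoid handling. The transporter genes Slc36a1 (53.6, 56.1 and 9.09 CPM), for protons with amino acids, and Slc46a1 (62.0, 29.7 and 2.23 CPM), for folate, were higher too. Pigr, for the receptor that carries IgA across the epithelium, was at 2557, 1543 and 378 CPM, and Leap2, for a secreted peptide, at 602, 669.8 and 121 CPM. Slc46a1, Pigr and Leap2 were picked for mention after their values were seen.

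**Figure D5:**
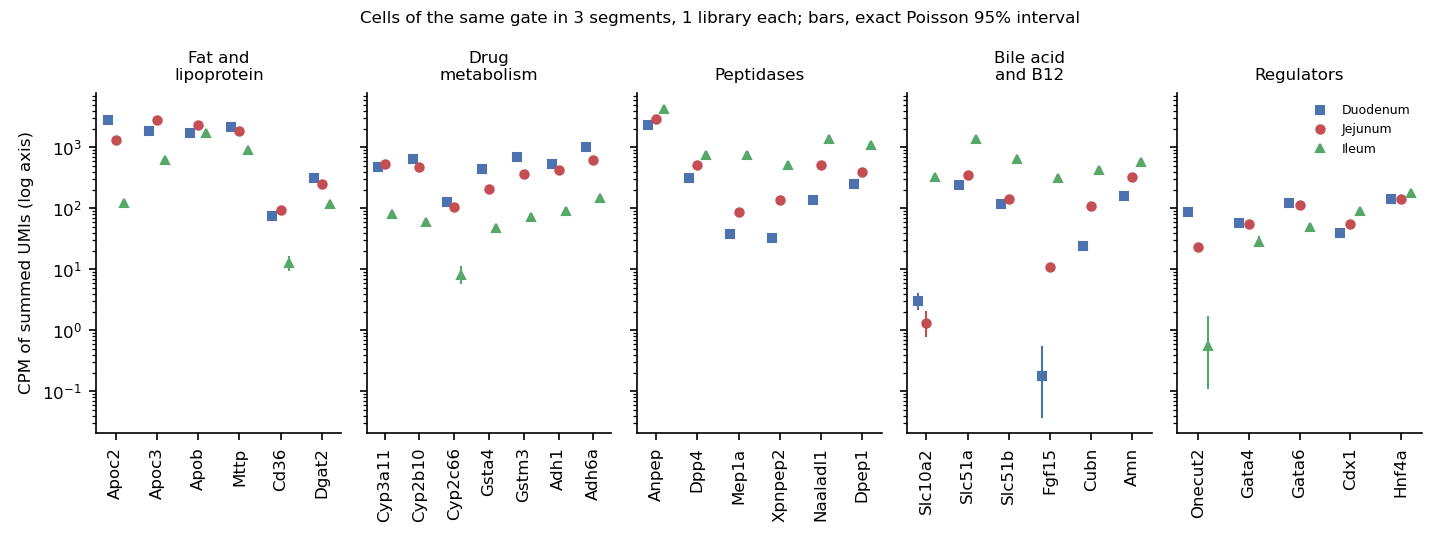
CPM of summed UMIs (y, log axis) in the 478 duodenal (squares), 547 jejunal (circles) and 292 ileal (triangles) cells of the same gate for genes grouped by role (x); vertical bars are exact Poisson 95% intervals. The jejunal drug-metabolism genes lie above the ileal level, the 6 peptidase genes plotted have jejunal levels between the other 2, and Slc10a2 stands at 1.31 CPM in jejunum against 323 in ileum.

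On the ileal side, 4 of 8 bile acid and vitamin B12 genes passed 4-fold as lower in jejunum, against 0.502% of all genes. None of the 8 was higher (median log2 ratio -2.06). Fabp6 was at 0.0607, 0.0596 and 50205 CPM in duodenum, jejunum and ileum, with 1 UMI in all jejunal enterocytes. Fabp6 UMIs were found in 33.4% of thinned ileal immune cells. Slc10a2, for the apical bile acid importer, was at 2.97, 1.31 and 323 CPM in the same order. Slc51b and Slc51a, for the paired subunits of the basolateral exporter, were at 119, 142 and 643 CPM and at 238, 346 and 1382 CPM. Fgf15, for the hormone that signals bile acid uptake to the liver, was at 0.182, 10.7 and 311 CPM, and its jejunal level went from 29.3 to 2.22 CPM along the axis with 55 of 180 UMIs in 1 cell. Cubn (23.8, 110.2 and 428 CPM) and its partner Amn (162, 321 and 583 CPM) were graded between the segments and did not pass 4-fold.

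Several further genes were at low levels in the duodenal and jejunal cells of the gate compared with the ileal ones. Tmigd1, for an adhesion protein of the brush border, was at 0.425, 5.67 and 985 CPM in duodenum, jejunum and ileum, Plb1, for a brush border phospholipase, at 0, 4.06 and 720.4 CPM in the same order, and Suox, for sulfite oxidase, at 0.121, 0.119 and 155 CPM. Slc25a48 (0, 0.119 and 50.9 CPM), for a mitochondrial carrier, Nos2 (0.0607, 0.835 and 51.2 CPM), for inducible nitric oxide synthase, and Pmp22 (0.121, 4.65 and 248 CPM) were likewise low in jejunum. Mgat4c, for a glycosyltransferase, was at 1.15, 11.7 and 445 CPM. Ada also passed, at 0.425, 0.179 and 35.8 CPM, but all 193 ileal UMIs came from 1 cell, and without each gene's highest cell its log2 ratio was 0.03.

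Other digestive genes had moderate gradients. Among 12 peptidase genes, 10 were lower in jejunum than in ileum (median log2 ratio -0.59), and all 12 were higher than in duodenum (median 0.60). Of all genes 4301 of 7968 were higher in jejunum than in ileum and 4611 of 8765 higher than in duodenum. Mep1a, for meprin alpha, was at 38.4, 86.2 and 748 CPM in duodenum, jejunum and ileum and was the 1 member past 4-fold. Xpnpep2, an aminopeptidase gene, was at 32.6, 138 and 511 CPM in the same order, Naaladl1 at 139, 509 and 1363 CPM and Dpep1, a dipeptidase gene, at 255, 387 and 1096 CPM. All 10 brush border structure and phosphatase genes were lower than in ileum (median -0.50), none past 4-fold. All 9 measured genes of sugar transport and fructose metabolism were higher (median 0.51), led by Slc2a2 at 308, 333 and 99.7 CPM. Slc15a1 was at 138, 351 and 464 CPM, and Slc5a1, for the glucose importer SGLT1, at 929.6, 1503 and 1155 CPM. None of the 8 sterol transport and synthesis genes passed as higher, and Sqle alone, for squalene epoxidase (9.46, 3.40 and 39.3 CPM), passed as lower.

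Of 16 measured regional and enterocyte transcription factor genes, Onecut2 alone passed 4-fold against ileum. At least 2-fold higher in jejunum were 4 of the 16 (Onecut2, Gata6, Nr1i3 and Pparg), against 2.72% of all genes. The list's median log2 ratio was -0.03. Gata4, which specifies jejunal identity, was at 56.7, 56.1 and 28.4 CPM in duodenum, jejunum and ileum, and Gata6 at 124, 113 and 49.2 CPM in the same order. Cdx1, a caudal-type factor of the intestine, was at 39.2, 55.7 and 90.6 CPM. Hnf4a was at 143, 139.9 and 181 CPM and Cdx2 at 78.4, 92.5 and 97.2 CPM. Along the jejunal axis none of 13 passed, with Hnf4a going from 142 to 165 CPM.

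Jejunal enterocytes were much closer to duodenal ones: 7 of 8765 genes were at least 4-fold higher in jejunum (0.0799%) and 7 at least 4-fold lower (0.0799%). The higher genes included Fam151a (19.2, 179 and 659.6 CPM in duodenum, jejunum and ileum), Enpp7 (33.0, 202 and 427 CPM in the same order), the phosphate transporter gene Slc34a2 (6.98, 79.9 and 501 CPM) and the monocarboxylate transporter gene Slc5a8 (0.303, 22.8 and 211 CPM). Abca1, for a cholesterol exporter, was at 9.71, 57.3 and 44.4 CPM, but was also at 83.2 CPM in jejunal immune cells. Reg3b was at 141, 658 and 1960.2 CPM. Defa30 was the last, on 1 cell. The lower genes were Sult6b2 (122, 7.34 and 0 CPM), Dmbt1 (219, 24.9 and 7.05 CPM), the water channel gene Aqp8 (58.6, 4.83 and 0.186 CPM), Reg1, Papss2 (818, 193 and 129.5 CPM), which makes the sulfate donor, Ly6e (217, 49.1 and 55.3 CPM) and Cck. Cck, for the hormone cholecystokinin, was at 54.9 CPM in duodenum with 894 of 905 UMIs in 1 cell, and at 0 UMIs in jejunum.

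The jejunal level was also placed for genes chosen for a 4-fold gap between duodenum and ileum, a choice that leaves room between the ends, so the counts describe these genes and are no test. Of 8163 genes, 69 were at least 4-fold higher in duodenum (0.845%) and 71 at least 4-fold higher in ileum (0.87%). The jejunal level lay between the other 2 for 63 of the 69 and 64 of the 71, and was nearer on the log scale to duodenum for 55 in each set. Over the 69, the median log2 difference of jejunum was -0.87 from duodenum and 1.84 from ileum, and over the 71 it was 0.90 and -1.95. These comparisons share the jejunal, duodenal and ileal libraries among them. No gene was past 4-fold in the same direction against both neighbours.

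The remaining lists gave few differences. Of 7 MHC class II genes none passed in any comparison. Their summed level was 76.5 CPM in jejunal enterocytes, 7705 in other jejunal epithelial cells and 25366 in immune cells. The 7705 cannot be read as an epithelial level, as that set had no limit on Ptprc. In 90 of its 357 cells these genes held over 1% of UMIs. Immediate early and stress genes, which cell isolation can induce, summed to 5198, 4615 and 4369 CPM in duodenum, jejunum and ileum and to 4397 and 4526 CPM in the lowest and highest jejunal quintiles. None of their 11 members passed 4-fold. In iron and calcium uptake none passed either: Heph, for the ferroxidase of iron export, was at 136, 177 and 187 CPM in the same order, Slc40a1, for the iron exporter, at 8.55, 0.895 and 5.57 CPM and S100g, for a calcium binding protein, at 37.7, 7.99 and 1.48 CPM. The apical calcium channel gene Trpv6 had 0 UMIs in all 3 classes. Crypt markers summed to 59.3 CPM in the class, 1737 in other jejunal epithelial cells and 25.8 in immune cells. In the class, 1 cell held 500 of their 994 UMIs. Markers of dividing cells summed to 124 CPM in the class, mostly Pcna, and to 985 CPM in other jejunal epithelial cells.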

How the data were processed

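The deposited files are 10x count matrices of 5 libraries: whole-number UMI counts per gene and barcode that the authors filtered to called cells, with no normalization. Per the file headers they were written by cellranger 7.2.0, whereas Cell Ranger 4.0.0 stands, beside Seurat and build mm10, in the submitters' processing notes, and which version made the counts cannot be settled here. Counts of the enterocyte gate were summed per library and divided by all UMIs of those cells to give CPM (Python 3.11.15, numpy 2.4.6, scipy 1.17.1).

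With 1 library per segment no test was run. A gene was compared if it had at least 50 UMIs on the higher side, and called when the ratio with 5 CPM added was at least 4 and the exact Poisson 95% intervals did not overlap. Left out were the gate genes, the axis genes (along the axis), antigen receptor genes (antibody and T cell), mitochondrial genes and gene models without a proper name. The script was tested on simulated data. The genes named are the 10 largest ratios in each direction of each comparison and members of 18 gene lists, with later picks marked as such. The class, the lists and the comparisons were chosen with earlier results of these data known. Doublets were not removed. Scrublet (scanpy 1.11.5) scores served only as an alternative that took out the 28 highest-scoring jejunal cells, 8 of them enterocytes; its automatic threshold marked 7. Alternative settings covered the quality limits, the absorptive share, the way of summing, thinning to 2000 UMIs, TMM factors (edgeR 4.0.16), the prior, the fold and the axis. Gene positions and promoter windows come from RefSeq tables of GRCm38.p6. The colon and rectum libraries and the spatial libraries were not used beyond the counts of cells given.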

Additional observations from a re-analysis of the deposited data

Results flagged for a closer look

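Olfm4, a crypt stem cell marker, passed 4-fold in opposite directions along the villus axis in 2 libraries, with a log2 ratio of -3.05 in jejunum and 2.53 in duodenum. The difference was not tested, and in each library a single cell held most UMIs of the higher end (216 of 224 in the lowest jejunal quintile and 91 of 105 in the highest duodenal one).

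Ada, almost absent from the jejunal enterocytes, gave a signal in barcodes that the mitochondrial limit removed. Of 560 jejunal barcodes that met every other condition, 2 held 29 Ada UMIs between them, above the limit of 3 UMIs set for this flag. The count rests on these 2 barcodes and is no test. The first held 22 Ada, 21 Slc28a2, 12 Enpp3 and 183 Apoa4 UMIs, with 0 of Lct and 0 of Sis, at 22.9% mitochondrial UMIs of 4154. The other held 7 Ada UMIs of 2061, with 69.6% mitochondrial. In ileum, 1 enterocyte within the limits held 193 Ada UMIs of 16086 and 93 of Apoa4, with 0 of Sis.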

How the results depend on the processing

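No paired analysis was possible because each segment has 1 library and the labels carry no replicate numbers. Ordering the cells by Ada alone was not run, since 3 of 547 cells held a UMI of it. The cause of the shifts below was not tested.

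The class itself held 547 cells, against 23 with at most 10% mitochondrial UMIs and 1107 with no mitochondrial limit. For jejunum against ileum 71 genes passed, with 416 at 2-fold and 29 with a prior of 20 CPM. The share higher in jejunum, 43.7%, became 26.2% of 84 at the 10% mitochondrial limit and 62.5% of 48 after thinning. For jejunum against duodenum 14 genes passed, with 107 at 2-fold and 6 with a prior of 20 CPM. The share higher, 50%, became 64.3% at the 10% limit, where 3 of the 14 were shared. Along the axis 87 genes passed, 28.7% of them higher. There were 34 with the 10% limit (23 cells), 28 with absorptive genes at 5% or more, 153 with cells ordered by Apoa4 alone and 39 without Apoa4 in the score. There were 22 after thinning (751 genes tested against 5972), 483 at 2-fold and 18 with cells cut into 3 groups. With no mitochondrial limit 86 passed, 15.1% of them higher, and 65 were shared with the 87. Every other alternative run left these counts within 1.5 times. The settings with no mitochondrial limit, with cells of at least 10000 UMIs and without each gene's highest cell were chosen after seeing the data.

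Directions turned for few genes, given as log2 ratios. Ada against ileum was 0.034 without each gene's highest cell. Defa30 against duodenum was -2.24 at the 10% limit, -0.51 at 5% absorptive genes and -0.42 without the highest cell, and at the 10% limit Reg1 was 0.58 and Reg3b -0.39. Along the axis Defa24 was 0.70, 1.93 and 0.25 at 5% absorptive genes, after thinning and without the highest cell. In the same settings Defa30 was 0.33, 1.52 and 0.061, and Lyz1 was 0.19, 0.95 and 0.064. Ordered by Apoa4 alone, Lyz1 was 0.28, Defa21 0.006 and Itln1 0.20, with Itln1 at 1.52 after thinning, and Olfm4 was 0.96 with cells cut into 3 groups.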
